A study of Homo sapiens with 12 samples.

Results

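The B cell receptor signals through a cascade of kinases, adaptors, lipid kinases, phospholipase C, calcium channels and protein kinase C, and 37 genes of that cascade were followed here in lymphoma cells carrying extra BCL7A. The genes are the intracellular components and the coreceptors of the receptor, taken by gene symbol from the Ensembl identifiers of 60603 counted genes. By textbook role, 25 are activators, 8 are inhibitors and 4 (LYN, GRB2, PRKCD and PTPRC) act in both directions. All 37 passed the filter on low counts, but CR2 passed through VAL alone.

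When antigen binds, Src family kinases such as LYN, BLK and FYN phosphorylate the receptor tails, SYK docks there, and the adaptor BLNK brings in phospholipase C gamma (PLCG2) and the VAV exchange factors. PLCG2 makes the messengers that open the calcium channels ITPR1 and ITPR3, which leads to NFAT, and that switch on PRKCB, which drives NF-kB through BCL10 and MALT1. Inhibitory receptors (FCGR2B, CD72) recruit the phosphatases PTPN6 and INPP5D, and the kinase CSK, the ubiquitin ligases CBL and CBLB and the adaptor DOK3 also restrain the signal. Lymphomas of B cell origin often depend on this pathway.

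OCI-LY1 and VAL are human cell lines from diffuse large B-cell lymphoma. Cells of each were given wild-type BCL7A, its splice-site mutant delta27-BCL7A, or the vector with no insert. BCL7A is a subunit of the SWI/SNF chromatin remodelling complexes. Per the labels, both the short and the long BCL7A isoforms were delivered in 3 rounds of infection at a multiplicity of 2, with a fluorescent reporter on which positive cells were sorted. RNA was taken at day 10 in OCI-LY1 and at day 17 in VAL, so line and day cannot be told apart. All groups were infected, the empty vector groups also expressed BCL7A, and each of the 6 groups holds 2 libraries from separate transductions of 1 line. The p-values below therefore measure the spread between transductions, which the test estimates in part from other genes.

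Both constructs raised BCL7A itself, in OCI-LY1 and in VAL. OCI-LY1 had 155 and 157 CPM of it (counts scaled to library size) with empty vector, 576 and 578 with the wild type and 573 and 588 with delta27-BCL7A. In VAL the values were 291 and 283, 454 and 472 and 490.2 and 485 CPM. No empty vector library overlapped a BCL7A library, and the rise was 3.69-fold and 3.72-fold in OCI-LY1 but 1.61-fold and 1.70-fold in VAL (edgeR quasi-likelihood adjusted p at most 1.81e-12). Reads from the vector and from the endogenous gene, or from wild-type and mutant transcripts, are not distinguished in these counts. Libraries held between 21839547 and 24935893 counts. All 8 B cell markers had a mean of at least 1 CPM (summed 3320 to 3877 CPM), all 6 T cell markers together reached at most 1.53 CPM and all 5 monocyte and macrophage markers at most 0.919 CPM. Of the 6 epithelial and fibroblast markers, EPCAM alone had a mean over all libraries above 1 CPM, from OCI-LY1 (25.8 and 23.2 CPM with empty vector, 16.7 and 17.4 with the wild type and 22.3 and 20.3 with delta27-BCL7A), and it was at 0 in all VAL libraries.

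The 2 lines differed in which pathway members they expressed. With empty vector, the exchange factor VAV3 was expressed in OCI-LY1 and VAV2 in VAL, and VAL had far more CR2, NFATC2, FYN, ITPR1 and PTPN6 than OCI-LY1. The shared core was strong in both. On the scale of RPKM (CPM per kilobase of exon), which allows genes to be compared, the membrane phosphatase PTPRC (CD45) was highest, at a mean of 105 in OCI-LY1 and 118 in VAL. SYK, the kinase that docks on the receptor tails, had a mean level of 84.2 and 76.3 RPKM, CSK of 61.1 and 56.0, and PLCG2 of 45.9 and 36.7. Of these, PTPRC, SYK and CSK differed little between the lines, and PLCG2 was lower in VAL (log2 difference -0.32). BLK, LYN and BLNK, which act beside SYK, were higher in VAL, by 1.47, 0.86 and 0.87 on the log2 scale.

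VAV2, a guanine nucleotide exchange factor, was at 0.922 and 1.34 CPM in the OCI-LY1 empty vector libraries and 108 and 109 CPM in those of VAL, a 95.7-fold difference. Its relative VAV3 was at 72.6 and 72.9 CPM in OCI-LY1 and 1.09 and 1.80 CPM in VAL, 50.1-fold lower in VAL. VAV1, the member of blood cells, was present in both lines, at 126 and 127 CPM in OCI-LY1 and 65.2 and 65.7 CPM in VAL. VAV2 was thus higher and VAV1 and VAV3 lower in VAL, with no overlap of libraries for any of them.

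CR2 (CD21), the complement receptor that lowers the threshold of the B cell receptor together with CD81, had 0 counts in both OCI-LY1 empty vector libraries and 579 and 476 counts in those of VAL. Set against a floor of 3 counts over the group (0.0628 CPM), CR2 was at least 379.8-fold higher in VAL, a bound that covers counting error only. PTPN6, the phosphatase SHP1, was at 7.80 and 8.204 CPM in OCI-LY1 and 83.4 and 85.2 CPM in VAL, 10.5-fold higher. The inhibitory coreceptors went the other way. FCGR2B, the inhibitory Fc receptor, was at 107 and 99.5 CPM in OCI-LY1 against 17.7 and 15.7 CPM in VAL, and CD72 at 189.7 and 186 against 43.2 and 43.2 CPM. FCGR2B has near-identical paralogues, among which the counting may divide reads with error. In the annotation, 19.5% of the exon bases of CD72 overlap genes on the opposite strand (TESK1 and AL357874.1), and although the library kit keeps the strand, the setting of the counting is not given in the sources used here, so those reads cannot be assigned with certainty. The same holds for 10.4% of the exon bases of ITPR3, 9.7% of BLNK and 9.2% of MALT1.

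Among the other members, NFATC2 was 15.0-fold, FYN 14.6-fold, ITPR1 11.1-fold and PRKCD 4.92-fold higher in VAL. RASGRP1, the exchange factor that activates RAS, was 2.53-fold and STIM1, the calcium sensor of the endoplasmic reticulum, 2.17-fold lower in VAL. In all, 9 members were more than 2-fold higher and 5 more than 2-fold lower in VAL, and 23 lay within 2-fold. Over all 17057 genes tested, 19.6% were more than 2-fold higher and 14.6% more than 2-fold lower. By adjusted p, 35 of the 37 members differed between the lines (edgeR quasi-likelihood, threshold 0.05), against 73.4% of all genes. In bulk RNA, fewer cells expressing a gene and less RNA per cell cannot be told apart, here or below. The calls of SYK, PIK3R1, CD81, CSK and PTPRC, all small differences, were lost without single libraries (adjusted p up to 0.107 for SYK, 0.345 for CD81 and 0.637 for CSK without VAL empty vector replicate 1, 0.302 for PIK3R1 without VAL empty vector replicate 2, 0.140 for PTPRC without OCI-LY1 empty vector replicate 2), and the count lay between 32 (without OCI-LY1 empty vector replicate 2 or either VAL empty vector replicate) and 36 (without either VAL wild-type replicate).

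**Figure D1:**
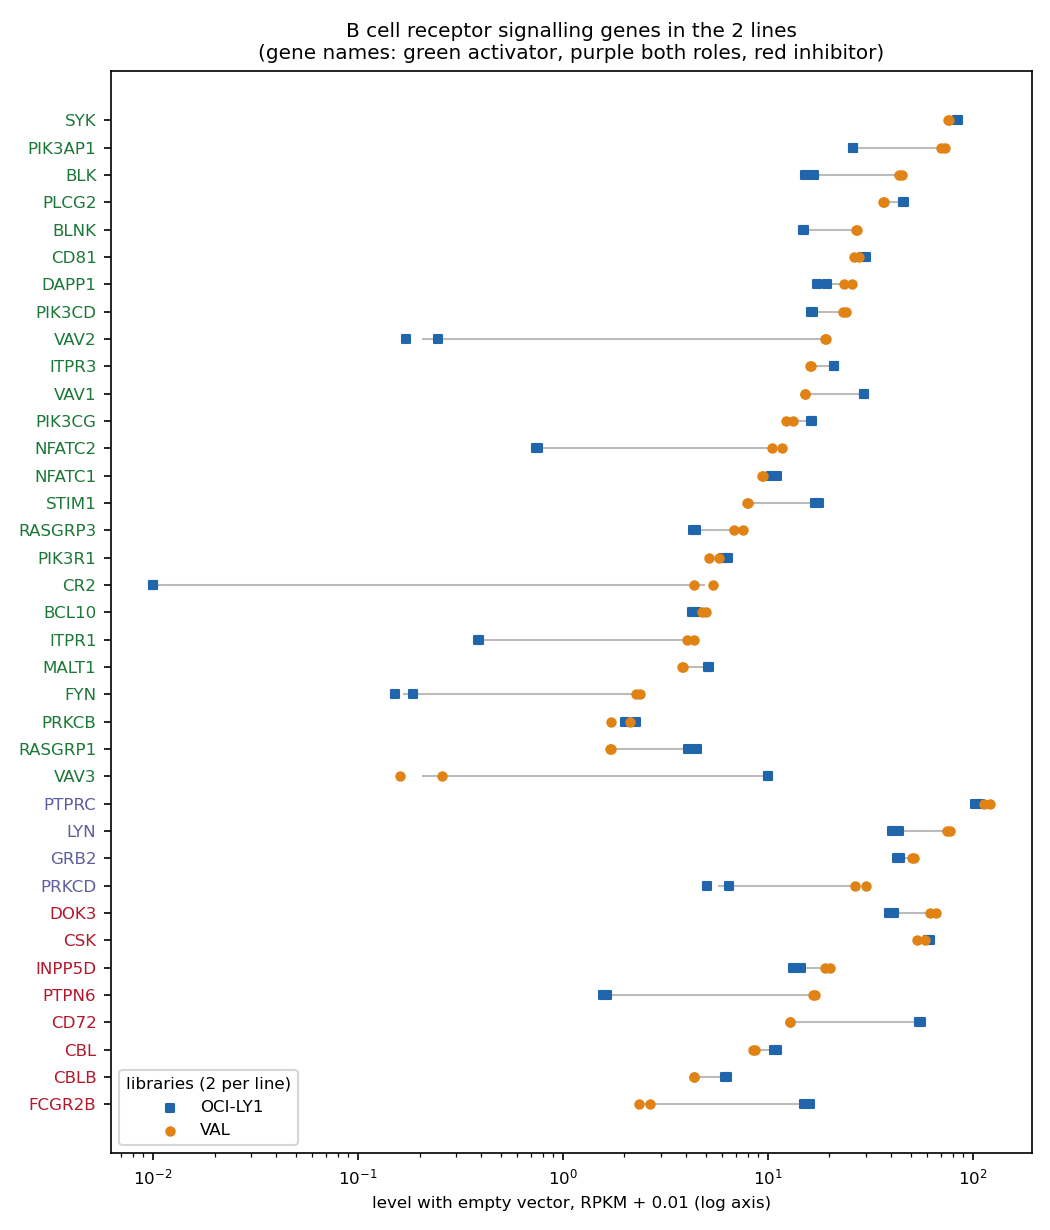
Level of each gene with empty vector, in RPKM + 0.01 on a log axis, for the 2 OCI-LY1 libraries (blue squares) and the 2 VAL libraries (orange circles), with a line joining the means of the lines and gene names coloured by class. VAV2, VAV3, CR2, NFATC2, FYN, ITPR1 and PTPN6 span the widest distances, while SYK, CSK and PTPRC have nearly the same level in both lines.

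In VAL, wild-type BCL7A raised 4 of the 37 genes relative to empty vector: CR2, PRKCB, PTPN6 and PIK3CD. Across all genes tested, 0.885% rose, 0.733% fell and 1.62% changed in either direction. Of the 4, 3 are activators and PTPN6 is an inhibitor. None fell (2 were lower at an unadjusted p under 0.05, and DESeq2 and limma-voom also called 0 lower). A correction for GC content and length gave 5 calls, with ITPR1 gained (log2 fold change -0.23 without the correction).

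The coreceptor CR2 (ENSG00000117322.17; GRCh38 chromosome 1, 207454230 to 207489895, plus strand) was at 26.3 and 21.4 CPM with empty vector and 41.3 and 41.0 CPM with wild-type BCL7A. Its log2 fold change was 0.79 (SE 0.09, 95% interval 0.61 to 0.96, edgeR quasi-likelihood adjusted p = 5.15e-07). The wild-type libraries lay close together and well above both empty vector libraries. In OCI-LY1 no construct brought CR2 above 1 count in any library, so its response there was not detectable at this depth.

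PRKCB (ENSG00000166501.14; chromosome 16, 23835946 to 24220611, plus strand), the protein kinase C that links the receptor to NF-kB, was at 23.4 and 19.0 CPM with empty vector and 31.9 and 33.9 CPM with the wild type. Its log2 fold change was 0.63 (SE 0.08, edgeR quasi-likelihood test, adjusted p = 1.05e-05), with no overlap between the groups. The empty vector libraries differed from each other by more than the wild-type libraries did.

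PTPN6 (ENSG00000111679.17; chromosome 12, 6946468 to 6961316, plus strand), which removes phosphate from receptor-proximal substrates, was at 83.4 and 85.2 CPM with empty vector and 119.6 and 108 CPM with the wild type. The log2 fold change was 0.44 (SE 0.06, edgeR quasi-likelihood test, adjusted p = 2.25e-05), again without overlap. PIK3CD, the catalytic subunit of the leukocyte PI 3-kinase, rose less, from 147 and 153 CPM to 176 and 184 CPM (log2 fold change 0.26, SE 0.05, same test, adjusted p = 0.00120). The calls of CR2, PRKCB and PTPN6 held in all 20 alternatives, while that of PIK3CD was lost without VAL empty vector replicate 1 (adjusted p = 0.0621). The summed level of 4 plasma cell markers was 87.5 to 93.6 CPM with the wild type, 68.0 to 73.4 with empty vector and 74.5 to 77.6 with delta27-BCL7A in VAL. IRF4, a factor that B cells also express, carried most of it (60.1 and 55.3 CPM with empty vector, 77.3 and 74.3 with the wild type), while SDC1, which defines plasma cells, was at or below 0.411 CPM in every library. The part of this in the results was not tested.

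CR2, PRKCB and PTPN6 were the members called higher with wild-type BCL7A than with empty vector and than with delta27-BCL7A in VAL, and their promoters are shown because the 3 genes rose together. The RefSeq windows (GRCh38.p14, plus strand, 250 bases before and 50 after an annotated start; 33 of the 37 members have a window) were searched on both strands for the octamer ATGCAAAT, the E-box CAGCTG, the ETS-type sequence GAGGAA and the kappa B motif of NF-kB. Matches are in capitals. CR2 at chr1:207454078-207454377, PRKCB at chr16:23835733-23836032 and PTPN6 at chr12:6946327-6946626 (window 1) and chr12:6951106-6951405 (window 2) read as follows.
CR2: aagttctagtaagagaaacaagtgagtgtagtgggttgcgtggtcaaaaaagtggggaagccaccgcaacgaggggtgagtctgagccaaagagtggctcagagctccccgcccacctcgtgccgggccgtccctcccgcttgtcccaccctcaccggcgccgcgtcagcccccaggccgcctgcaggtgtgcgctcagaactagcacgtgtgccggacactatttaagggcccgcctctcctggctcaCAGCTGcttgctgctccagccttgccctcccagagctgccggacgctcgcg
PRKCB: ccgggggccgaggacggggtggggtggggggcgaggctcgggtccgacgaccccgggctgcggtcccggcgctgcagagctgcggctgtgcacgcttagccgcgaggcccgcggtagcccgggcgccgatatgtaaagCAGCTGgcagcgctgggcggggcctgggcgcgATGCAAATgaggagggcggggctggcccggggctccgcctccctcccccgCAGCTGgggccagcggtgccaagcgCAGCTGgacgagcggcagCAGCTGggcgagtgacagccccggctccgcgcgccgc
PTPN6 window 1: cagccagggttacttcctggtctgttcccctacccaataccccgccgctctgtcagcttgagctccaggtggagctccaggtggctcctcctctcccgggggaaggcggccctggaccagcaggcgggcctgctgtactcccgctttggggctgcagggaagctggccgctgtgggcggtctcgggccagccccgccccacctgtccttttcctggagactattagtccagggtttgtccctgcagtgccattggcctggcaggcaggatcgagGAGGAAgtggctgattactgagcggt
PTPN6 window 2: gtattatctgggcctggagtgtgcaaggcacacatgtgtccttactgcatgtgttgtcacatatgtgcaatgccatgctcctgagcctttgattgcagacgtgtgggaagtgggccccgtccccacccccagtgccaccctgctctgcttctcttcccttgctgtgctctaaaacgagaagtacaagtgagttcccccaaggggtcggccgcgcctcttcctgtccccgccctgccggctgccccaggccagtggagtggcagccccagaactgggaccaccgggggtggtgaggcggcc
The octamer was found in the PRKCB window, beginning 80 bases before the start, and is held by 1.77% of 35116 windows of the same length. CAGCTG occurred 4 times in the PRKCB window and once in that of CR2, and 17.9% of all windows hold it. GAGGAA occurred in window 1 of PTPN6 (27.9% of all windows), window 2 of PTPN6 held no match, and the kappa B motif (1.4% of all windows) was in none of the 4. No match overlapped another. A match describes letters in the window and is no evidence of binding.

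**Figure D2:**
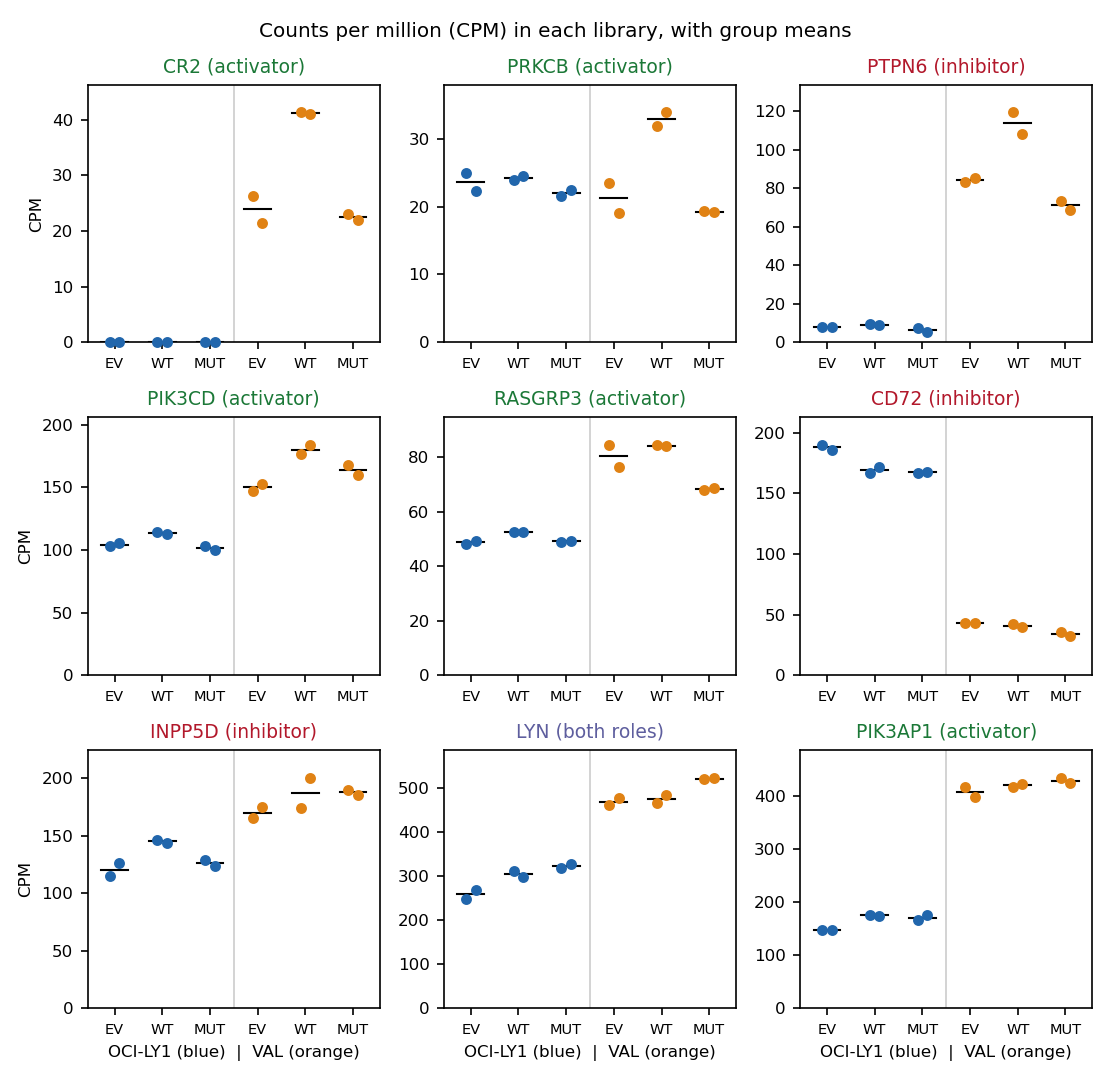
Level in CPM of 9 genes in each of the 12 libraries, with blue points for OCI-LY1 and orange points for VAL, a black bar for each group mean, and EV, WT and MUT for empty vector, wild-type and delta27-BCL7A. In VAL the wild-type points of CR2, PRKCB and PTPN6 lie above all 4 others, and in OCI-LY1 CR2 is at the axis in all 6 libraries.

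Delta27-BCL7A changed 5 of the 37 genes in VAL relative to empty vector, with CSK and NFATC2 higher and CD72, PTPN6 and RASGRP3 lower. Across all genes tested, 2.5% rose, 2.63% fell and 5.13% changed in either direction. CD72, an inhibitory coreceptor, fell from 43.2 and 43.2 CPM to 35.4 and 32.4 CPM (log2 fold change -0.35 with SE 0.06, edgeR quasi-likelihood adjusted p = 0.000827). PTPN6 fell from 83.4 and 85.2 CPM to 73.6 and 69.0 CPM (log2 fold change -0.24, SE 0.06, same test, adjusted p = 0.0193). So PTPN6 stood on the opposite side of empty vector from where the wild type put it.

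RASGRP3, a RAS exchange factor switched on by diacylglycerol, was at 84.4 and 76.3 CPM with empty vector and 68.1 and 68.9 CPM with delta27-BCL7A (log2 fold change -0.23, edgeR quasi-likelihood adjusted p = 0.0134). NFATC2, a calcium-driven transcription factor, was at 86.4 and 96.7 and 111 and 104 CPM (log2 fold change 0.23, same test, adjusted p = 0.0165). CSK, which phosphorylates Src family kinases at their inhibitory tyrosine, was at 243 and 269 and 289.9 and 288 CPM (log2 fold change 0.17, same test, adjusted p = 0.0306). In none of the 5 did the delta27-BCL7A libraries overlap those with empty vector, which is no support beyond the call. CR2 was not called, at 23.1 and 21.9 CPM (log2 fold change -0.08, 95% interval -0.27 to 0.10), nor was PRKCB, at 19.3 and 19.2 CPM (log2 fold change -0.14, 95% interval -0.32 to 0.04).

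The delta27-BCL7A calls in VAL rested on single libraries more than those of the wild type. Without delta27-BCL7A replicate 2 no member was called (CD72 then had adjusted p = 0.0539), and without delta27-BCL7A replicate 1 or empty vector replicate 1 the count was 1, CD72. PTPN6 also lost its call without empty vector replicate 2 (adjusted p = 0.0899). A fit of VAL alone called 1 member, DESeq2 called 3 and a correction for GC content and length called 11. The shares of all genes called under these settings are not given here. The summed B cell markers were lower with delta27-BCL7A in VAL (3437 to 3486 CPM) than with empty vector (3723 to 3877 CPM) or the wild type (3695 to 3814 CPM). Relative to empty vector, MS4A1 fell most in CPM (mean 1457 to 1274). PAX5 (447 to 491) and BLNK (99.4 to 102.5) were higher and the other markers lower. The part of this in the results was not tested.

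Set directly against each other in VAL, wild-type and delta27-BCL7A differed in 7 of the 37 genes. CR2, PRKCB, PTPN6, RASGRP3 and CD72 stood above delta27-BCL7A with the wild type, and PIK3R1 and NFATC2 below it. Of all genes tested, 4.54% were higher, 4.53% lower and 9.07% called in either direction. These comparisons share the wild-type libraries with the first and the delta27-BCL7A libraries with the second comparison above, so they are no separate evidence.

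PTPN6 was at 119.6 and 108 CPM with the wild type against 73.6 and 69.0 CPM with delta27-BCL7A, a log2 difference of 0.68 (SE 0.06, edgeR quasi-likelihood test, adjusted p = 1.94e-09), or 1.60-fold. The log2 difference was 0.87 for CR2 (SE 0.09, adjusted p = 1.68e-08) and 0.77 for PRKCB (SE 0.08, adjusted p = 7.01e-08, same test). These were the 3 members that differed by more than 0.5 on the log2 scale in any call within a line. RASGRP3 was at 84.5 and 84.1 CPM with the wild type, above both delta27-BCL7A libraries (log2 difference 0.30 with SE 0.06, edgeR quasi-likelihood adjusted p = 0.000533). CD72 was at 42.1 and 39.9 CPM with the wild type (log2 difference 0.27, adjusted p = 0.00468, same test).

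PIK3R1, the regulatory subunit of PI 3-kinase, was at 53.1 and 56.7 CPM with the wild type and 62.7 and 64.2 CPM with delta27-BCL7A (log2 difference -0.21, edgeR quasi-likelihood adjusted p = 0.0254), and NFATC2 at 88.7 and 97.4 and 111 and 104 CPM (log2 difference -0.21, adjusted p = 0.0212, same test). Both were small differences without overlap. The calls of CR2, PRKCB, PTPN6 and RASGRP3 held in all 20 alternatives. CD72 lost its call without wild-type replicate 1 (adjusted p = 0.0597) or delta27-BCL7A replicate 2 (0.121), NFATC2 without replicate 1 of either construct and PIK3R1 without wild-type replicate 1 or any 1 of the delta27-BCL7A libraries (adjusted p up to 0.350 and 0.212). DESeq2 and a fit of VAL alone called neither PIK3R1 nor NFATC2, and the correction for GC content and length did not call PIK3R1. Leaving out wild-type replicate 1 gave 4 calls and leaving out wild-type replicate 2 gave 11. These are the pair of replicates that differed most from each other (chi-square divided by its degrees of freedom 7.51, while the other 5 groups had 1.52 to 3.21).

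In OCI-LY1, wild-type BCL7A moved more members by less. Relative to empty vector, 10 of the 37 genes rose and 1 fell, while 6.23% of all genes rose, 5.21% fell and 11.4% changed in either direction. Those that rose were the kinase LYN, the activators VAV3, PIK3CG, PIK3AP1, PIK3R1, MALT1, CD81 and RASGRP1, and the inhibitors INPP5D and CBLB. CD72 fell.

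RASGRP1 had the largest change among these, from 24.8 and 27.4 CPM to 33.7 and 34.1 CPM (log2 fold change 0.38 with SE 0.08, edgeR quasi-likelihood adjusted p = 0.00216). INPP5D, the phosphatase SHIP1 that removes the lipid product of PI 3-kinase, went from 115 and 126 CPM to 146 and 144 CPM (log2 fold change 0.27, SE 0.06, same test, adjusted p = 0.00171). PIK3AP1 (BCAP), the adaptor that brings PI 3-kinase to the membrane, went from 147 and 149 CPM to 176 and 175 CPM (log2 fold change 0.24, SE 0.05, same test, adjusted p = 0.000750). In all 3 the wild-type libraries lay above both empty vector libraries, and the rise was of 18.4% to 29.8%.

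Of the 3 PI 3-kinase subunits, PIK3CD was not called (log2 fold change 0.12). PIK3R1 went from 68.7 and 65.3 CPM to 79.9 and 77.3 CPM (log2 fold change 0.23) and PIK3CG, the gamma catalytic subunit, from 97.2 and 96.5 to 114 and 108 CPM (log2 fold change 0.20). LYN went from 249 and 269.5 CPM to 312 and 298 CPM (log2 fold change 0.23). CBLB, which ubiquitinates activated kinases, VAV3, MALT1, the protease of the NF-kB branch, and CD81, a tetraspanin of the coreceptor, rose with log2 fold changes of 0.24, 0.21, 0.20 and 0.19. CD72 fell from 189.7 and 186 CPM to 167 and 171 CPM (log2 fold change -0.15, edgeR quasi-likelihood adjusted p = 0.0399). For each of the 11 the wild-type libraries did not overlap those with empty vector, which is no support beyond the call.

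PIK3AP1 was the one call of these 11 that held in all 20 alternatives. There were 2 calls without empty vector replicate 1 and 3 without wild-type replicate 1. Without empty vector replicate 2 there were 7, with PIK3CG and PIK3R1 among those lost. Leaving out empty vector replicate 1 also ended the calls of CD81, CBLB and PIK3CG, and left RASGRP1, INPP5D and LYN uncalled (adjusted p = 0.0847, 0.105 and 0.0972). LYN, CD81, CBLB, PIK3CG and PIK3R1 were not called without wild-type replicate 1. VAV3 and MALT1 lost their calls without any 1 of the 4 libraries compared (adjusted p up to 0.187 and 0.238). DESeq2 did not call VAV3, MALT1 or CD72, and CD72 held in 8 of 20 alternatives. The correction for GC content and length did not call MALT1 or CD72. It gave 15 calls, with CBL, DOK3, GRB2, ITPR1, PIK3CD and PRKCD gained.

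With delta27-BCL7A in OCI-LY1, 6 of the 37 genes rose and 2 fell relative to the same empty vector libraries. Of all genes, 10.4% rose, 9.16% fell and 19.6% changed in either direction, so the 8 members called are close to that share. LYN rose most clearly, from 249 and 269.5 CPM to 318 and 328 CPM (log2 fold change 0.32 with SE 0.05, edgeR quasi-likelihood adjusted p = 1.13e-05). MALT1, whose antisense overlap is given above, was at 58.5 and 59.7 CPM with empty vector and 66.9 and 75.8 CPM with delta27-BCL7A (log2 fold change 0.27, adjusted p = 0.00146, same test).

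PIK3R1, PIK3AP1, VAV3 and the ubiquitin ligase CBL also rose with delta27-BCL7A, with log2 fold changes of 0.23, 0.21, 0.18 and 0.19. CD72 fell to 167 and 167 CPM (log2 fold change -0.17) and FCGR2B from 107 and 99.5 to 93.3 and 91.6 CPM (log2 fold change -0.16, edgeR quasi-likelihood adjusted p = 0.0451). Beside these, wild-type BCL7A gave log2 fold changes of 0.23 for PIK3R1, 0.24 for PIK3AP1, 0.21 for VAV3, 0.23 for LYN and -0.15 for CD72, from the same empty vector libraries.

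LYN was called in all 20 alternatives. The count was 1 without delta27-BCL7A replicate 2 (MALT1 then had adjusted p = 0.126 and PIK3AP1 0.0830) and 4 without either empty vector replicate. VAV3, CBL and CD72 were also lost without either empty vector replicate, PIK3R1 without empty vector replicate 2, and CD72 without delta27-BCL7A replicate 1. FCGR2B held in 4 of 20 alternatives. The share of reads of low alignment quality was 3.92% and 3.01% in the delta27-BCL7A libraries of OCI-LY1, against 4.80% to 6.90% in the other 4 of that line, and fold changes fell with GC content across genes (Spearman correlation -0.41 over the genes tested, which are not independent replicates). The part of the low-quality reads in the result was not tested. With a correction for GC content and length the count was 11: CD81, CSK, GRB2, INPP5D, NFATC1, STIM1 and VAV1, 7 genes, gained a call, while PIK3R1, MALT1, FCGR2B and CD72 were no longer called (adjusted p = 0.11001, 0.0642, 0.227 and 0.320).

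Wild-type and delta27-BCL7A differed in 3 of the 37 genes in OCI-LY1, and all 3 were inhibitors that stood higher with the wild type: PTPN6, DOK3 and INPP5D. Of all genes tested, 1.68% were higher, 1.38% lower and 3.05% called in either direction. PTPN6 was at 9.32 and 9.17 CPM with the wild type and 7.29 and 5.54 CPM with delta27-BCL7A (log2 difference 0.53 with SE 0.12, edgeR quasi-likelihood adjusted p = 0.00914). DOK3, an adaptor that carries inhibitory phosphatases to the receptor, was at 214 and 203 against 186 and 166 CPM (log2 difference 0.24, adjusted p = 0.0183, same test). INPP5D was at 146 and 144 against 129 and 124 CPM (log2 difference 0.20, adjusted p = 0.0469, same test).

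None of the 3 overlapped between the constructs, which is no support beyond the call. None of the 25 activators was called here (5 were higher and 0 lower at an unadjusted p under 0.05, and DESeq2 and limma-voom also called 0). With the correction for GC content and length, however, the activators ITPR1 and RASGRP1 gained a call, as did the inhibitors CBLB and CSK. Each of the 3 calls was lost without wild-type replicate 1, wild-type replicate 2 or delta27-BCL7A replicate 2, and the count was then 0. Without the last of these, PTPN6 had adjusted p = 0.414, DOK3 0.471 and INPP5D 0.455. INPP5D was called neither with another scaling (0.0516), by DESeq2 (0.130) nor by limma-voom (0.0738) and was also lost without delta27-BCL7A replicate 1 or either VAL delta27-BCL7A replicate. The count was 5 without either VAL wild-type replicate or in a fit of OCI-LY1 alone, and 7 with the correction for GC content and length.

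PTPN6 was the single gene of the 37 called between wild-type and delta27-BCL7A in both lines, from separate libraries. The log2 difference was 0.68 in VAL and 0.53 in OCI-LY1, and the difference between the lines was 0.15 (95% interval -0.13 to 0.43, edgeR quasi-likelihood adjusted p = 0.790). In each line the wild-type libraries were the highest and the delta27-BCL7A libraries the lowest of the 3 groups, with empty vector between them and no overlap. In OCI-LY1, however, neither construct was called against empty vector: the log2 fold change was 0.21 with the wild type (adjusted p = 0.270) and -0.32 with delta27-BCL7A (adjusted p = 0.0641, same test). PTPN6 had 131 to 218 reads in an OCI-LY1 library, the lowest being delta27-BCL7A replicate 2, so these values are less precise than those in VAL.

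**Figure D3:**
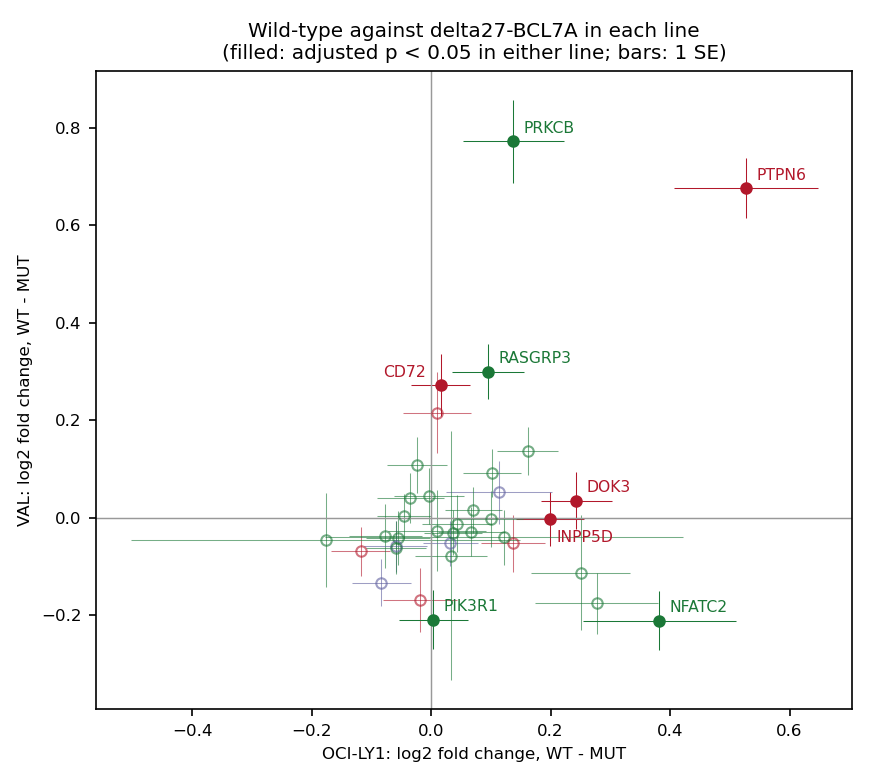
Log2 difference between wild-type and delta27-BCL7A for the members in OCI-LY1 (horizontal) and in VAL (vertical), with bars of 1 SE, filled points for adjusted p under 0.05 in either line, and colours by class (green activator, purple both roles, red inhibitor). CR2, with at most 1 count per library in OCI-LY1, is left out. PTPN6 lies far to the right and high, PRKCB is high with little difference in OCI-LY1, and most members lie near the origin.

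The effect of a construct was tested for a difference between the lines, as VAL minus OCI-LY1. Line, day and the size of the BCL7A rise, which was larger in OCI-LY1, cannot be told apart in such a difference. For wild-type BCL7A against empty vector, 4 members differed, 2 in each direction (3.89% of all genes did, 1.25% with the higher and 2.63% with the lower effect in VAL). PRKCB rose in VAL and not detectably in OCI-LY1, where it was at 25.02 and 22.3 CPM with empty vector and 23.9 and 24.5 CPM with the wild type, and the line difference was 0.60 on the log2 scale (SE 0.12, edgeR quasi-likelihood test, adjusted p = 0.00191). It held in all 19 alternatives. ITPR1, a calcium release channel, was at 12.4 and 12.2 CPM with empty vector and 15.2 and 15.0 CPM with the wild type in OCI-LY1, and at 142 and 131 and 106 and 128 CPM in VAL. Neither change was called within its line, while the line difference of -0.52 was (SE 0.12, adjusted p = 0.00984, same test). The fitted log2 fold changes of ITPR1 had opposite signs, 0.29 in OCI-LY1 (adjusted p = 0.0621) and -0.23 in VAL (adjusted p = 0.0563, same test). Both gained a call with the correction for GC content and length.

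PIK3R1 had a line difference of -0.33 (adjusted p = 0.0200) and FCGR2B, which was at 17.7 and 15.7 CPM with empty vector and 19.3 and 19.1 CPM with the wild type in VAL, of 0.35 (adjusted p = 0.0408, edgeR quasi-likelihood). ITPR1 lost its call without OCI-LY1 empty vector replicate 2 (adjusted p = 0.0581) or wild-type replicate 1 (0.0548). PIK3R1 lost it without these, OCI-LY1 wild-type replicate 2 or VAL empty vector replicate 1 (adjusted p up to 0.113), and FCGR2B held in 7 of 19 alternatives. The count was 1 without OCI-LY1 wild-type replicate 1, 2 without OCI-LY1 empty vector replicate 2, OCI-LY1 wild-type replicate 2 or VAL empty vector replicate 1, 11 without VAL wild-type replicate 2, and 8 with the correction for GC content and length.

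For delta27-BCL7A against empty vector, 0 members differed between the lines by the edgeR quasi-likelihood test (1.51% of all genes did, 0.281% higher and 1.23% lower in VAL), while 6 did at an unadjusted p under 0.05 and DESeq2 and limma-voom called 0. The count was 3 without VAL wild-type replicate 1 or 2 and 2 without VAL empty vector replicate 2. For wild-type against delta27-BCL7A, 2 members differed (0.451% of all genes did, 0.27% higher and 0.182% lower in VAL): PRKCB by 0.63 (SE 0.12, edgeR quasi-likelihood test, adjusted p = 0.00492) and NFATC2 by -0.59 (SE 0.14, adjusted p = 0.0432). NFATC2 was at 7.53 and 6.82 CPM with the wild type and 5.42 and 5.59 CPM with delta27-BCL7A in OCI-LY1, the reverse of its order in VAL. PRKCB lost its call without OCI-LY1 wild-type replicate 1 (adjusted p = 0.0545) or delta27-BCL7A replicate 2 (0.0599), NFATC2 held in 9 of 19 alternatives, and the count was 0 without either of the libraries just named and 8 without VAL wild-type replicate 2. It was 1 without OCI-LY1 wild-type replicate 2, OCI-LY1 delta27-BCL7A replicate 1, VAL wild-type replicate 1 or either VAL delta27-BCL7A replicate, and by DESeq2, limma-voom or a stricter filter.

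Members of both classes were called in both directions over the 6 comparisons. In OCI-LY1 with wild-type BCL7A, 7 of 25 activators and 2 of 8 inhibitors rose and 1 inhibitor fell (6.23% of all genes rose and 5.21% fell), and the median log2 fold change was 0.07 over 24 activators without CR2 and 0.14 over the inhibitors (-0.01 over all genes). With delta27-BCL7A in that line, 4 activators rose, 1 inhibitor rose and 2 inhibitors fell (10.4% of all genes rose and 9.16% fell), with medians of 0.01 and -0.04 (-0.03 over all genes). Between the constructs in OCI-LY1, 0 activators and 3 inhibitors were higher with the wild type (1.68% of all genes were), and the medians were 0.04 for activators and 0.08 for inhibitors.

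In VAL with the wild type, 3 of 25 activators and 1 of 8 inhibitors rose (0.885% of all genes did), with medians of 0.04 and 0.05 on the log2 scale. With delta27-BCL7A, 1 activator rose and 1 fell while 1 inhibitor rose and 2 fell (2.5% of all genes rose and 2.63% fell), and both medians were 0.02. With the correction for GC content and length these medians were 0.06 for activators and 0.00149 for inhibitors. Between the constructs in VAL, the wild type had 3 activators higher and 2 lower, and 2 inhibitors higher (4.54% of all genes were higher and 4.53% lower), with medians of -0.03 and 0.02. Over the 6 comparisons the activator and inhibitor medians lay between -0.04 and 0.14. No test was made between the classes, whose members are not replicates. The classes also differ in composition: the median GC content of the transcripts was 47.1% for activators, 56.4% for inhibitors and 48.2% over all genes tested, and fold changes followed GC content across genes in all 6 comparisons (Spearman correlation between -0.41 and 0.26). The same correction gave medians of 0.08 and 0.19 for the wild type and 0.05 and -0.01 for delta27-BCL7A in OCI-LY1, for activators (here with CR2) and inhibitors in turn.

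**Figure D4:**
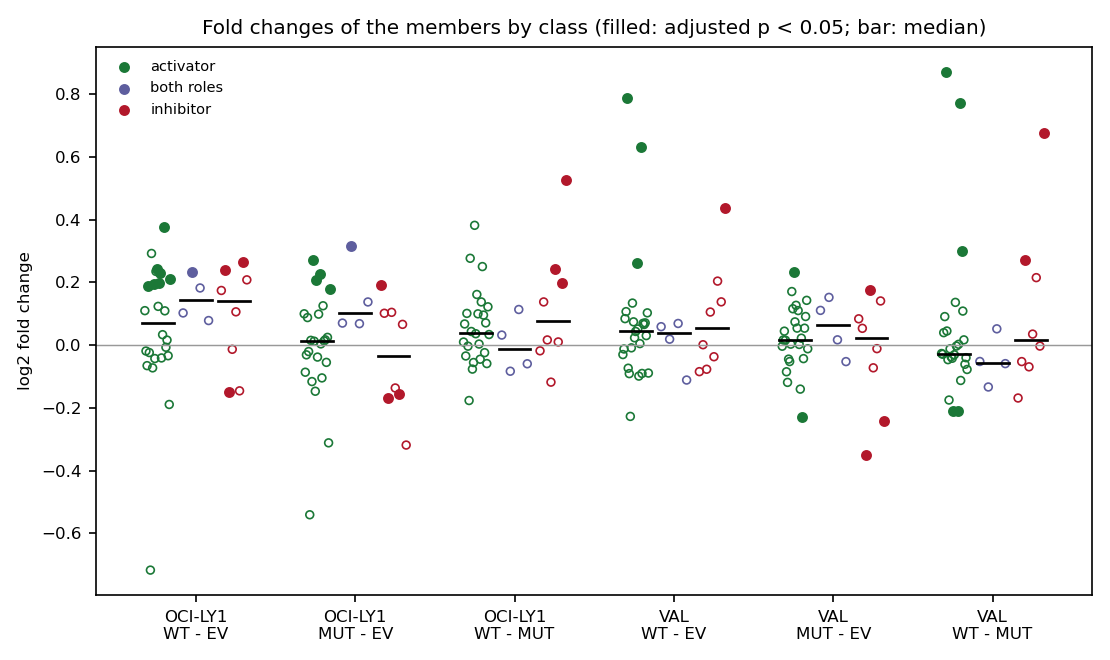
Log2 fold change of each member in the 6 comparisons within a line, by class, with filled points for adjusted p under 0.05 and a bar at each class median; EV, WT and MUT are empty vector, wild-type and delta27-BCL7A, and CR2 is left out in OCI-LY1. The medians lie near 0 in each class, and the points above 0.5 are CR2 and PRKCB (green) and PTPN6 (red).

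Across the 6 comparisons, 21 of the 37 genes were called at least once, against 28.9% of all genes tested, and 16 in none: BCL10, BLK, BLNK, DAPP1, FYN, GRB2, ITPR1, ITPR3, NFATC1, PLCG2, PRKCD, PTPRC, STIM1, SYK, VAV1 and VAV2. With the correction for GC content and length, DAPP1, GRB2, ITPR1, NFATC1, PRKCD, STIM1, VAV1 and VAV2 of the 16 gained calls. The 16 include the core from kinase to phospholipase, SYK, BLNK and PLCG2, which gained none. PLCG2 was at 489 and 496 CPM with empty vector, 492 and 496 with the wild type and 494 and 493 with delta27-BCL7A in VAL, and its log2 fold change with the wild type had a 95% interval of -0.09 to 0.10. SYK was at 394 and 401, 408 and 427 and 412 and 414 CPM in the same groups (95% interval for the wild type -0.02 to 0.17). In OCI-LY1 the same intervals were -0.13 to 0.05 for PLCG2 and -0.08 to 0.11 for SYK. Of the 16, FYN and VAV2 had the widest spread, at about 1 CPM in OCI-LY1, where FYN had a log2 fold change of -0.72 with the wild type (SE 0.30, edgeR quasi-likelihood test, adjusted p = 0.120). The other 14 lay between -0.23 and 0.29 on the log2 scale in all 6 comparisons.

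The rest of the pathway was read from a list of 91 further genes in 8 arms, of which 88 were tested. In OCI-LY1, 15 rose and 4 fell with wild-type BCL7A, or 21.6% called against 11.4% of all genes. With delta27-BCL7A 16 rose and 13 fell, or 33.0% against 19.6%. In VAL, 3 rose and 3 fell with the wild type (6.82% against 1.62%), and 5 rose and 12 fell with delta27-BCL7A (19.3% against 5.13%). These shares are descriptions, since the list was not tested as a set. The calls of these 91 genes were not checked under the alternatives. With the wild type against delta27-BCL7A, 5 were higher and 1 lower in OCI-LY1 (6.82% against 3.05%), and 10 higher and 5 lower in VAL (17.0% against 9.07%).

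The receptor and its surface partners, 11 genes tested, were the arm in which delta27-BCL7A lowered most genes: 7 fell and 0 rose in VAL, where 2.63% of all genes fell, and 5 fell and 0 rose in OCI-LY1, where 9.16% of all genes fell. In VAL they included FCRL1, FCRL2 and FCRL3. The arm was not tested as a set, and its calls were not checked under the alternatives. FCRL3, an Fc receptor-like protein, was at 108 and 100 CPM with empty vector, 119 and 119.7 with the wild type and 74.7 and 75.2 with delta27-BCL7A in OCI-LY1 (log2 difference between the constructs 0.67, edgeR quasi-likelihood adjusted p = 7.54e-05). Its delta27-BCL7A libraries were the lowest of that line. FCRL1 and FCRL2 fell with both constructs in VAL, by log2 fold changes of -0.62 and -0.49 with the wild type, relative to the same empty vector libraries.

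In the calcium arm, PPP3R1, the regulatory subunit of calcineurin, was at 63.7 and 68.5 CPM with empty vector, 92.0 and 92.6 with the wild type and 95.5 and 101 with delta27-BCL7A in OCI-LY1, and rose by log2 fold changes of 0.48 and 0.57 (edgeR quasi-likelihood adjusted p = 1.45e-07 and 1.68e-09). In VAL it rose with delta27-BCL7A (0.28, adjusted p = 0.00112). NFATC4, one of the factors that calcineurin activates, fell with both constructs in OCI-LY1 (-0.53 and -0.78) and with delta27-BCL7A in VAL (-0.52). FOXO1, the transcription factor that AKT restrains, rose with both constructs in OCI-LY1 (0.35 and 0.40) and with the wild type in VAL (0.29). TNFAIP3, the deubiquitinase A20 that damps NF-kB, was at 35.5 and 37.6 CPM with empty vector, 45.6 and 43.3 with the wild type and 33.5 and 28.5 with delta27-BCL7A in VAL, 0.51 higher on the log2 scale with the wild type than with delta27-BCL7A (adjusted p = 1.88e-05, same test).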

How the data were processed

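Polyadenylated RNA of 12 libraries was sequenced after a stranded preparation, per the labels. The deposited values are whole-number read counts per Ensembl gene, which the authors made with STAR 2.6.1b and HTSeq 0.11.2 on GRCh38, per the submitters' processing notes. The annotation release, strand setting and read filters are not given in the sources used here. Rows naming no gene, 23.3% to 29.4% of reads, were left out.

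Gene symbols were found for 60306 of 60603 identifiers, and 58518 were matched to GENCODE v29 for coordinates and exon length. Counts were scaled by TMM, filtered (filterByExpr, minimum count 10) and fitted with edgeR 4.0.16 quasi-likelihood in R 4.3.3, with 6 group means over 12 libraries, Benjamini-Hochberg adjustment over 17057 genes and a threshold of 0.05. With 2 libraries a group, the fit leaves 6 residual degrees of freedom. The tests and intervals also borrow spread from other genes, which gives a median of 35.2 degrees of freedom in total. The common biological coefficient of variation was 3.70%. Intervals are 95%. The script was tested on simulated data. RPKM used union exon length.

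Alternatives were RLE scaling, DESeq2 1.42.0, limma 3.58.1 voom, other filters, each line alone, a replicate block, a GC and length correction, and leaving out each library. Any member could be named; of the other pathway genes, up to 3 in each direction of a within-line comparison were eligible, those with the smallest p among called genes averaging 1 CPM or more whose libraries do not overlap, and some of them are given, with their values in other comparisons too. The members and lists were chosen with earlier results of these data known. A result that needs a withheld item is not reported here.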

Additional observations from a re-analysis of the deposited data

Results flagged for a closer look

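In 6 cases the effect of a construct differed between VAL and OCI-LY1 by the edgeR quasi-likelihood test of that difference. For wild-type BCL7A against empty vector the log2 line difference was 0.60 for PRKCB, 0.35 for FCGR2B, -0.33 for PIK3R1 and -0.52 for ITPR1. For wild-type against delta27-BCL7A it was 0.63 for PRKCB and -0.59 for NFATC2. Line, day of collection and the size of the BCL7A rise cannot be told apart in these differences. That rise was 3.69-fold and 3.72-fold in OCI-LY1 against 1.61-fold and 1.70-fold in VAL.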

How the results depend on the processing

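Shares of all genes called under the alternatives, or at an unadjusted p under 0.05, are not given here. The counts therefore do not show whether members moved more than other genes. The number of members called moved by more than 1.5 times under these alternatives. Between the constructs, OCI-LY1 gave 3, but 5 with each line alone and 7 with the GC and length correction. Delta27-BCL7A against empty vector in VAL gave 5, but 3 with DESeq2, 1 with each line alone and 11 with the correction. The line difference of the wild-type effect gave 4, but 8 with the correction, and that of wild type against delta27-BCL7A gave 2, but 1 with DESeq2, limma-voom or the stricter filter. Leaving out 1 library gave 2 to 16 and 1 to 12 for the wild type and delta27-BCL7A against empty vector in OCI-LY1, 0 to 5 between the constructs, 3 to 6, 0 to 6 and 4 to 11 for the same in VAL, 1 to 11, 0 to 3 and 0 to 8 for the line differences, and 32 to 36 between the lines.

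The activator minus inhibitor median, here with CR2 included unless stated (the class medians of OCI-LY1 given above leave CR2 out), was -0.0309 for the wild type in OCI-LY1. It was -0.0689 with each line alone and -0.0689 without CR2, and -0.107 with the GC and length correction. The correction gave 0.0558 for delta27-BCL7A in VAL and -0.00866 between the constructs in VAL. With dual-role genes counted as inhibitors it was -0.0560 for delta27-BCL7A in OCI-LY1, and between the constructs 0.0121 in OCI-LY1 and 0.000814 in VAL. Leaving out 1 library gave -0.0563 to -0.0139, -0.0158 to 0.0752 and -0.0774 to -0.00753 in OCI-LY1, and -0.0306 to 0.0387, -0.0398 to 0.0255 and -0.101 to 0.0290 in VAL. PTPRC between the lines turned to -0.0393 with the correction. The cause was not tested.

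A replicate block gave 10, 7 and 3 members called in OCI-LY1, 4, 5 and 7 in VAL, 4, 0 and 2 for the line differences and 35 between the lines. It ended the calls of CD72 with the wild type (adjusted p = 0.0517) and of FCGR2B with delta27-BCL7A (0.0563) in OCI-LY1. Same-numbered libraries of a line correlated between -0.161 and 0.127 in their deviations across genes, so no large shared shift was seen. This cannot show whether same-numbered libraries were handled together.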
